A study of Homo sapiens with 12 samples.

Results

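The question here was what the histone deacetylase inhibitor CHR-3996 did to gene expression in myeloma cells that were also given the aminopeptidase inhibitor tosedostat (CHR-2797). H929, an established human myeloma cell line, was exposed for 24 h to 1 µM tosedostat together with 250 nM CHR-3996 (the combination, 3 samples) or to 1 µM tosedostat alone (3 samples). These 6 of the 12 samples in the series were chosen by their titles, and the only difference between their labels is CHR-3996. The other 6 samples, 3 of cells given 250 nM CHR-3996 for 24 h and 3 of untreated cells, gave the same step without tosedostat and share no array with the first comparison. H929 is a single cell line, so the replicates are repeats of it, and the p-values reflect no more than how far these samples differ among themselves.

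Histone deacetylases take acetyl groups off histones and other proteins, and inhibiting them leaves chromatin more acetylated, which switches on some silent genes and lowers the transcription of others, among them genes of proliferation. Aminopeptidases remove single amino acids from the ends of short peptides and so complete the recycling of protein that the proteasome begins. Their inhibition is known to starve cells of free amino acids, and the kinase GCN2 and the transcription factor ATF4 answer such starvation. Plasma cells, from which myeloma arises, make large amounts of antibody and depend on protein turnover, and many myelomas also depend on NFκB, a family of transcription factors that induces its own inhibitors.

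Each sample was read on 1 Affymetrix U133 Plus 2.0 array, and a level is a log2 signal, on which a step of 1 is a 2-fold difference. Probe sets (groups of probes for 1 transcript) were tested if their signal passed an array's 40th percentile, on average 4.54, in 3 or more of the 12 samples, and a change was called at an adjusted p under 0.05. Replicate arrays of the combination or of tosedostat correlated at r of 0.978 to 0.983, and combination arrays correlated with tosedostat arrays at 0.911 to 0.929. Array medians were 5.29 ± 0.02 in combination cells and 5.06 ± 0.02 in tosedostat cells (SD, n = 3 each). The excess of 3' over 5' signal of ACTB, a measure of RNA integrity and amplification, was 1.24 ± 0.15 in combination cells and 2.09 ± 0.11 in tosedostat cells, and its part in the results was not tested. All 9 plasma cell markers checked and the t(4;14) myeloma markers FGFR3 and NSD2 lay above the 40th percentile on every array. Markers of other cells were mixed. CD3D, CD8A, CD14, COL1A2, COL3A1, CD22 and ALAS2 lay above it on no array and LUM on 1, whereas CD3E, CD2, CSF1R, FCN1, COL1A1 and DCN did so on all 12 and MS4A1 on 11. PAX5, LYZ and HBB, markers of B cells, monocytes and red cells, averaged 6.66, 4.88 and 8.06 in combination cells and 4.89, 3.02 and 6.27 in tosedostat cells. The part of other cells in the results was not tested.

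CHR-3996 changed the expression of a large share of the genes measured in tosedostat-treated cells, and more of them rose than fell. Of 36395 probe sets tested, 10340 were higher (28.4%) and 4979 lower (13.7%) in combination cells than in tosedostat cells. Counted as genes, each through its brightest probe set, 4740 of 15587 rose (30.4%) and 2462 fell (15.8%), of which 2245 (14.4%) and 776 (4.98%) changed at least 2-fold, 46.2% of all genes being called. The arrays of the groups did not overlap for 58.9% of genes. Rises made up 67.5% of the called probe sets on the deposited scale, 47.7% once the arrays were quantile normalized and 45.8% once their medians were made equal, which moved the median change of all probe sets from 0.13 to -0.08 and -0.11. Which direction held more calls therefore depended on the scaling. In RNA from a whole culture, fewer cells of a kind and less RNA per cell cannot be told apart.

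The strongest rises were of genes that lay near the array background under tosedostat alone. SELENOP, which encodes the secreted carrier of selenium, had a log2 signal of 12.42, 12.83 and 12.46 in combination cells, against 4.47, 5.25 and 4.55 in tosedostat cells. The log2 fold change was 7.81 ± 0.22 (SE, adjusted p = 2.73e-08). That the groups stood apart follows from the choice of the 10 highest genes, which required it. MAP2, a microtubule-binding protein of neurons, reached 10.43, 10.26 and 10.30 in combination cells and 3.07, 4.83 and 4.07 in tosedostat cells. Of the 3 tosedostat values, 2 are under the 40th percentile of their arrays, so the size of the log2 fold change of 6.34 is uncertain. The same holds for the genes named next, whose tosedostat values were all under it except those of DHRS2. The others of the 10 highest were MMP13, a collagenase (6.61), FRMD4B (6.42), MAL2, a membrane protein of vesicle traffic (6.31), LYPD3 (5.96), NPY1R, a receptor for neuropeptide Y (5.91), DHRS2, a short-chain dehydrogenase (5.81), ENPP2, which encodes autotaxin (5.64), and FN1, fibronectin (5.52).

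The genes that fell most have varied roles. ARHGAP9 had 3.54, 3.04 and 3.14 in combination cells, against 7.37, 8.10 and 7.42 in tosedostat cells (log2 fold change -4.39 ± 0.25, adjusted p = 5.9e-07), with all 3 combination values under the 40th percentile and the size of the fall therefore uncertain. CXCR3, a chemokine receptor, had 4.19, 4.93 and 5.06 in combination cells and 8.02, 7.89 and 7.95 in tosedostat cells, and TIGIT, an inhibitory receptor of lymphocytes, had 5.06, 6.37 and 5.91 in combination cells and 8.71, 9.36 and 8.47 in tosedostat cells. That the groups stood apart for these 3 genes follows from the choice of genes, which required it, and is not a separate finding. The further genes of the 10 lowest were CDC25A (-4.23, below), SIGLEC16 (-3.61), DOCK10 (-3.40), SLC43A3, a transporter of purine bases (-3.35), DTX1, a ubiquitin ligase of the Notch pathway (-3.20), DUS3L, which modifies uridines of RNA (-3.12), and MGAT3, a glycosyltransferase (-3.09). The calls of SIGLEC16 and DTX1 were lost when values under the 40th percentile were raised to it (adjusted p = 0.845 and 0.632).

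**Figure D1:**
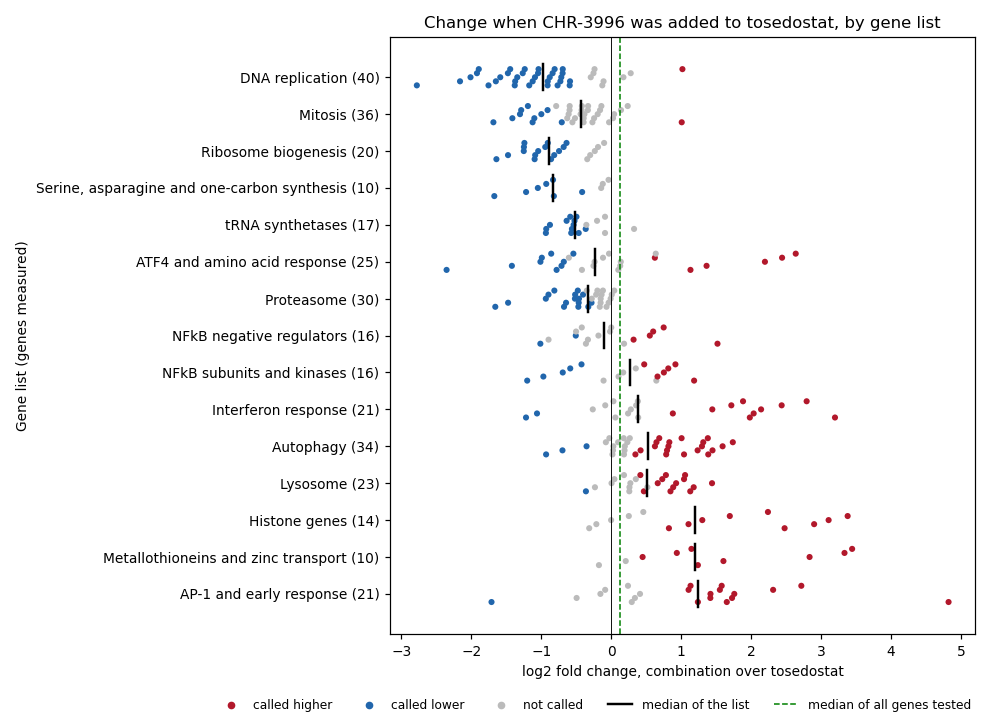
Each point is a gene, placed by its log2 fold change of combination over tosedostat cells, in 15 gene lists with the number of genes measured in brackets. Red points were called higher, blue points called lower and grey points not called, black bars are list medians, and the dashed line is the median of all 15587 genes, 0.12. DNA replication, ribosome biogenesis and tRNA synthetases lie mostly to the left, and autophagy, lysosome, histone genes and metallothioneins mostly to the right.

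Genes of DNA replication fell together when CHR-3996 was added. Of 40 measured, 32 fell and 1, RPA3, a subunit of the single-strand binding protein, rose, with a median log2 fold change of -0.97, where 15.8% of all genes fell and the median of all genes was 0.12. CDC45, part of the replicative helicase, had 6.64, 7.62 and 7.78 in combination cells, against 10.12, 9.93 and 10.32 in tosedostat cells (log2 fold change -2.78 ± 0.29, adjusted p = 2.13e-05). The helicase loader CDC6 (-1.89), the helicase subunits MCM4 (-2.01) and MCM7 (-1.75), the polymerase subunit POLE2 (-1.92) and the sliding clamp PCNA (-1.09) also fell. Of 11 genes of deoxynucleotide supply, 8 fell and 1 rose. TYMS, thymidylate synthase, had 9.40, 10.10 and 10.25 in combination cells and 12.88, 12.81 and 12.88 in tosedostat cells (-2.94 ± 0.26, adjusted p = 7.86e-06), and RRM2, the ribonucleotide reductase subunit, fell by 2.14 on the log2 scale. Of 15 genes of homologous recombination, the Fanconi pathway and the S phase checkpoint, 10 fell and none rose, led by BRCA1 (-1.75) and CHEK1 (-1.47).

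Several factors that drive entry into S phase fell too. CDC25A, the phosphatase that activates cyclin-dependent kinases, had 5.64, 6.06 and 6.40 in combination cells, against 10.19, 10.30 and 10.32 in tosedostat cells. The 2 sets of arrays are separated by more than 3 on the log2 scale, and all 3 probe sets of CDC25A fell. Separate arrays were required for its choice among the 10 lowest genes and are not a separate finding. Of 16 E2F, RB and MYB family genes and close partners, 9 fell (56.2%, against 15.8% of all genes), among them MYBL2 (-2.98), FOXM1 (-2.51), E2F2 (-2.36) and E2F1 (-2.15). The 5 that rose (31.2%, against 30.4%) included the pocket proteins RB1 (1.18) and RBL2 (0.82), which hold E2F in check. Cyclins were split. CCND1 (-2.50), CCND2 (-1.50), CCNA2 (-1.44) and CCNE2 (-0.67) fell, while CCNG2, an atypical cyclin linked to arrest, had 12.10, 11.95 and 12.08 in combination cells and 8.21, 9.14 and 8.69 in tosedostat cells (3.37 ± 0.29, adjusted p = 6.07e-06, with 4 of its 5 probe sets higher and 1 lower). Of the inhibitors of cyclin-dependent kinases, CDKN2B (3.67) and CDKN1C (3.19) rose and CDKN1B (-0.71) fell, and CDKN1A was not called, at 12.38, 12.37 and 12.15 in combination cells and 12.08, 12.12 and 11.92 in tosedostat cells (adjusted p = 0.158).

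The promoters of 2 of these genes show the letters by which E2F sites are usually recognised. A search for TTTGGCGC, TTTCGCGC, TTTCCCGC or TTTGCCGC on either strand, in the 300 bases that RefSeq places around each gene start (GRCh38.p14), found a match in 18 of 35 replication genes with a promoter in the table (51.4%), in 6 of 13 of the E2F, RB and MYB list (46.2%) and in 3 of 31 mitotic genes (9.68%). All promoters held one in 3.33% of cases, and those of the tested genes in 4.84%. The capitals mark the match, at 44 bases before the start of CDC25A (chr3:48188368-48188667, minus strand) and 5 bases before that of POLE2 (chr14:49688165-49688464, minus strand).
CDC25A: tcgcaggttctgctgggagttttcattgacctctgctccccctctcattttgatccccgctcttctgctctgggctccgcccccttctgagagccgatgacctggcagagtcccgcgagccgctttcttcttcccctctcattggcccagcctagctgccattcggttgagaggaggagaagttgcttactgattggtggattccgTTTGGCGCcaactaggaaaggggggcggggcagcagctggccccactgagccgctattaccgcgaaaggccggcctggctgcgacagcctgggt
POLE2: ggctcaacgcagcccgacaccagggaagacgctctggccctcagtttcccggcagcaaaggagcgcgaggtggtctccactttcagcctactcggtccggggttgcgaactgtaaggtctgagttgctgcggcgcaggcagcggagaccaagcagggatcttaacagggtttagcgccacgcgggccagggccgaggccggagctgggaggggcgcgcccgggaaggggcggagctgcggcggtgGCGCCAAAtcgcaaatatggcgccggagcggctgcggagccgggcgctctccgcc
A match is a run of letters and does not show that E2F bound there, and neither promoter held the letters of the 3 other motifs searched below.

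Genes of mitosis were lower too, but fewer passed the test. Of 36 measured, 10 fell (27.8%, against 15.8% of all genes) and 1, PTTG1 or securin, rose, with a median of -0.43. When the replicate number was taken as a block, 16 fell. SPC25, a kinetochore protein, had 7.13, 8.27 and 8.55 in combination cells and 9.52, 9.60 and 9.88 in tosedostat cells (-1.68 ± 0.34, adjusted p = 0.0022), and the kinase AURKB had 6.20, 6.65 and 7.03 in combination cells, against 7.96, 7.85 and 8.30 in tosedostat cells (-1.41 ± 0.21, adjusted p = 0.0003). For AURKA the change of -0.61 ± 0.24 did not pass (adjusted p = 0.0659, and 0.0137 with the block), nor did that of TOP2A, -0.59 ± 0.26 (adjusted p = 0.0878, and 0.0358 with the block). Without tosedostat, 32 of the 36 mitotic genes fell on CHR-3996, with a median of -1.26, where 18% of all genes fell. The difference between the 2 steps was positive for all 36 genes, from 0.29 to 1.20 with a median of 0.78 (median of all genes 0.01), and called for none. In simulated data this test recovered 21.3% of differences of 1 on the log2 scale. Counts with other scalings were 16 after quantile normalization and 18 with equal array medians. Under these scalings 8570 and 8631 of all 36395 probe sets were lower, against 4979 on the deposited scale.

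**Figure D2:**
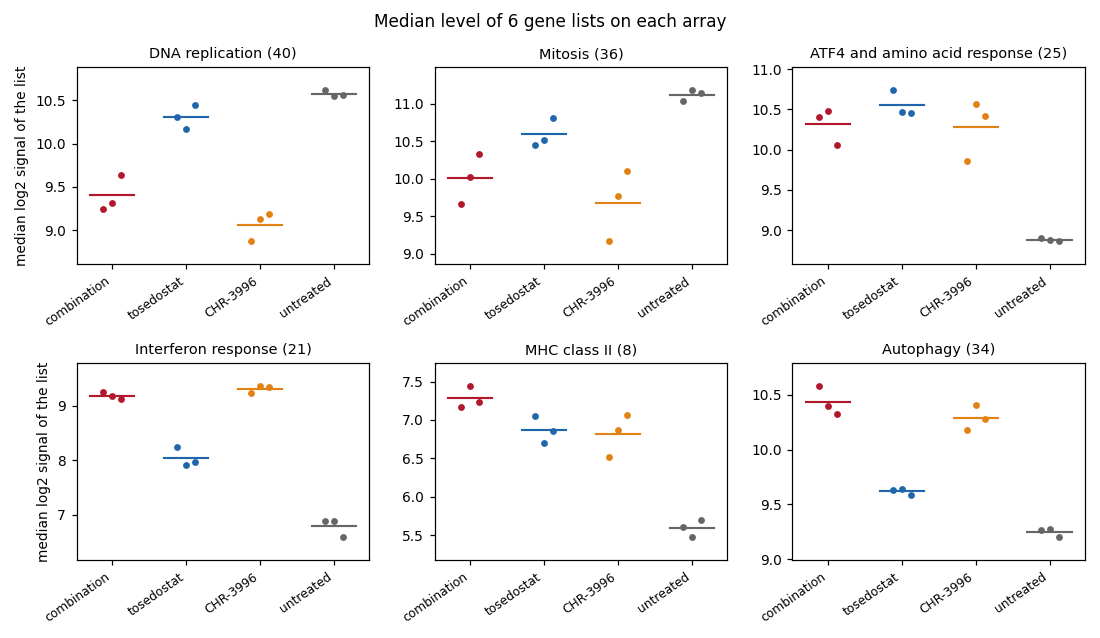
Each point is the median log2 signal over the genes of a list on 1 array, with the number of genes in brackets, for combination, tosedostat, CHR-3996 and untreated cells, 3 arrays each, and bars are group means. Mitotic genes lay between 9.67 and 10.33 in combination cells and between 10.46 and 10.81 in tosedostat cells, and untreated cells lay above both at 11.04 to 11.18. For the interferon list, the combination (9.13 to 9.25) lay at the CHR-3996 level (9.23 to 9.36) and tosedostat (7.91 to 8.24) above untreated cells (6.59 to 6.89).

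Genes of the amino acid response were split when CHR-3996 was added to tosedostat, and most of those called rose when it was given alone. Of 25 genes of ATF4 and the amino acid response, 9 fell (36%) and 6 rose (24%) when CHR-3996 was added to tosedostat. The median was -0.24, and of all genes 15.8% fell and 30.4% rose. When CHR-3996 was given without tosedostat, 14 of the 25 rose and 5 fell, with a median of 0.71. In that step 31.7% of all genes rose and 18% fell, with a median of 0.11. The median of the list on each array was 10.40, 10.48 and 10.06 in combination cells, 10.74, 10.46 and 10.46 in tosedostat cells, 9.86, 10.57 and 10.42 in CHR-3996 cells and 8.90, 8.87 and 8.86 in untreated cells. The 3 treated groups overlap, and all of their arrays lie above the untreated ones. ATF4 mRNA itself had 12.42, 12.40 and 12.14 in combination cells and 12.88, 12.86 and 12.85 in tosedostat cells (-0.54 ± 0.18, adjusted p = 0.03), a call that held in 8 of 12 fits with 1 array left out (highest adjusted p = 0.104).

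Targets of the response moved in both directions. DDIT3, the stress transcription factor CHOP, had 10.53, 10.48 and 10.06 in combination cells, against 9.04, 9.14 and 8.81 in tosedostat cells (1.36 ± 0.18, adjusted p = 0.000104). ATF3 (2.20), the cystine transporter SLC7A11 (1.13), asparagine synthetase ASNS (0.62), KLHL24 (2.64) and VLDLR (2.44) rose as well. In contrast STC2, stanniocalcin 2, had 9.21, 9.69 and 9.04 in combination cells and 11.78, 11.79 and 11.42 in tosedostat cells (-2.35 ± 0.25, adjusted p = 2.52e-05). CEBPB, a partner of ATF4 and CHOP, fell by 1.42 on the log2 scale. TRIB3, a pseudokinase that restrains ATF4, had 10.05, 10.59 and 10.06 in combination cells, against 11.21, 11.20 and 11.26 in tosedostat cells (-0.99 ± 0.25, adjusted p = 0.00857), whereas without tosedostat it rose by 0.71 on CHR-3996. The difference between these 2 changes had an adjusted p of 0.105, and 0.0489 with the replicate number as a block.

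Genes that restore amino acids and load them on tRNA fell more often than they rose in combination cells. Of all genes, 15.8% fell and 30.4% rose. Of 10 genes in the list of serine, asparagine and one-carbon synthesis, 7 fell and none rose, with a median of -0.83 on the deposited scale. Asparagine synthetase ASNS, which rose as given above, was counted in the ATF4 list and not in this one. ALDH1L2, a mitochondrial folate enzyme, had 9.72, 10.04 and 9.71 in combination cells and 11.49, 11.59 and 11.41 in tosedostat cells (-1.67 ± 0.20, adjusted p = 6.4e-05). PSAT1 and PHGDH, the enzymes of serine synthesis, changed by -0.93 and -0.83. Of 17 tRNA synthetases, 12 fell and none rose, with a median of -0.52 and a narrow range, from -0.93 for YARS1 to 0.33 for RARS1, which was not called. IARS1, which charges tRNA with isoleucine, had 11.95, 11.77 and 11.79 in combination cells and 12.76, 12.65 and 12.72 in tosedostat cells (-0.88 ± 0.13, adjusted p = 0.000283). All its tosedostat arrays lay above all combination arrays, and the arrays of the groups did not overlap for 58.9% of all genes. Of 14 amino acid transporters, 6 fell, among them SLC7A1 for cationic amino acids (-1.62), the light chain SLC7A5 (-0.75) and its partner SLC3A2 (-1.09), and 3 rose, among them SLC38A2 for neutral amino acids (0.75).

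The ATF4 composite element, searched as TGATGNAA on either strand, was present in 5 of 14 tRNA synthetase promoters (35.7%) and 4 of 20 promoters of the ATF4 list (20%), against 3.67% of all promoters and 2.27% of those of tested genes. The promoter of IARS1 is shown because its match lies next to the gene start, 13 bases before it (chr9:92293648-92293947, minus strand, GRCh38.p14).
IARS1: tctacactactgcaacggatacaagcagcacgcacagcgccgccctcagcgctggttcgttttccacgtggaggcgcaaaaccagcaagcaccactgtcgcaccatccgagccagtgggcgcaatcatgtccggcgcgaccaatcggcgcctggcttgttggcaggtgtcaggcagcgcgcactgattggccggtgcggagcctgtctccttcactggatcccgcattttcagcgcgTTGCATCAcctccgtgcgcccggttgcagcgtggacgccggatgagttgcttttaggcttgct

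Negative regulators of NFκB rose about as often as other genes. Of 16 measured, 5 rose (31.2%, against 30.4% of all genes) and 2 fell (12.5%, against 15.8%), with a median of -0.10. Falls numbered 4 without combination replicate 1 or 2, 5 after quantile normalization and 6 with equal array medians. Under these 2 scalings 8570 and 8631 of all 36395 probe sets were lower, against 4979 on the deposited scale. A further 4 of the 20 genes listed were not analysed here. TNFAIP3, which encodes the ubiquitin-editing enzyme A20, had 9.88, 10.22 and 9.80 in combination cells and 10.22, 9.82 and 9.86 in tosedostat cells, with a log2 fold change of 0.00 ± 0.26 (adjusted p = 0.999). The arrays of the groups overlap fully. Without tosedostat, TNFAIP3 averaged 8.22 ± 0.57 in CHR-3996 cells and 6.09 ± 0.29 in untreated cells (SD, n = 3 each), a rise of 2.13 (adjusted p = 5.58e-05). The difference between the 2 steps, -2.13, had an adjusted p of 0.0532, and 0.0321 with the replicate number as a block.

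NFKBIA, the inhibitor IκBα, had 10.98, 10.29 and 10.46 in combination cells and 11.32, 10.93 and 10.73 in tosedostat cells. The ranges overlap, and the change of -0.42 ± 0.20 was not called (adjusted p = 0.128), although it was with equal array medians (-0.66, adjusted p = 0.0262). Its difference from the step without tosedostat had an adjusted p of 0.133, and 0.0455 with the replicate block. CYLD, a deubiquitinase that opposes NFκB signalling, had 10.30, 10.48 and 10.37 in combination cells, against 9.83, 9.81 and 9.71 in tosedostat cells (0.60 ± 0.13, adjusted p = 0.00335, with 6 of its 7 probe sets higher). NFKBIZ, an atypical IκB, rose most of the 16 measured, with 10.78, 10.06 and 10.01 in combination cells and 9.01, 8.62 and 8.66 in tosedostat cells (1.52 ± 0.20, adjusted p = 0.000108). TRAF3, which keeps the kinase NIK low, fell, with 8.54, 8.18 and 8.17 in combination cells and 9.58, 9.27 and 9.07 in tosedostat cells (-1.01 ± 0.16, adjusted p = 0.000394). NFKBIE, IκBε, fell with tosedostat present (-0.51) and rose without it (0.37), but the difference was not called (adjusted p = 0.0733).

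The subunits and kinases of the pathway were split as well, 6 higher (37.5%) and 5 lower (31.2%) of 16, against 30.4% and 15.8% of all genes. RELB, a subunit of the non-canonical pathway, had 5.96, 6.46 and 5.59 in combination cells and 7.28, 7.31 and 7.03 in tosedostat cells (-1.20 ± 0.23, adjusted p = 0.00131), while its means in CHR-3996 and untreated cells were 5.28 ± 0.30 and 5.29 ± 0.22 (adjusted p of the difference between the steps 0.205, and 0.033 with the replicate block). NFKB1 had 7.35, 7.69 and 7.27 in combination cells and 8.08, 8.12 and 8.18 in tosedostat cells (-0.69 ± 0.15, adjusted p = 0.00394). The kinase IKBKB fell by 0.97 and NFKB2 by 0.58 on the log2 scale, and MAP3K14, which encodes NIK, rose by 0.66. Among 12 chemokines, cytokines and adhesion targets, CXCL10 (2.95), CCL5 (2.85), CCL4 (2.38), CXCL8 (1.71) and CD83 (0.83) rose. ICAM1, an adhesion molecule induced by NFκB, had 7.98, 8.22 and 7.90 in combination cells and 9.60, 9.06 and 9.28 in tosedostat cells (-1.28 ± 0.18, adjusted p = 0.000182). Every combination array of ICAM1 and RELB lay below every tosedostat array, and the arrays of the groups did not overlap for 58.9% of all genes.

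**Figure D3:**
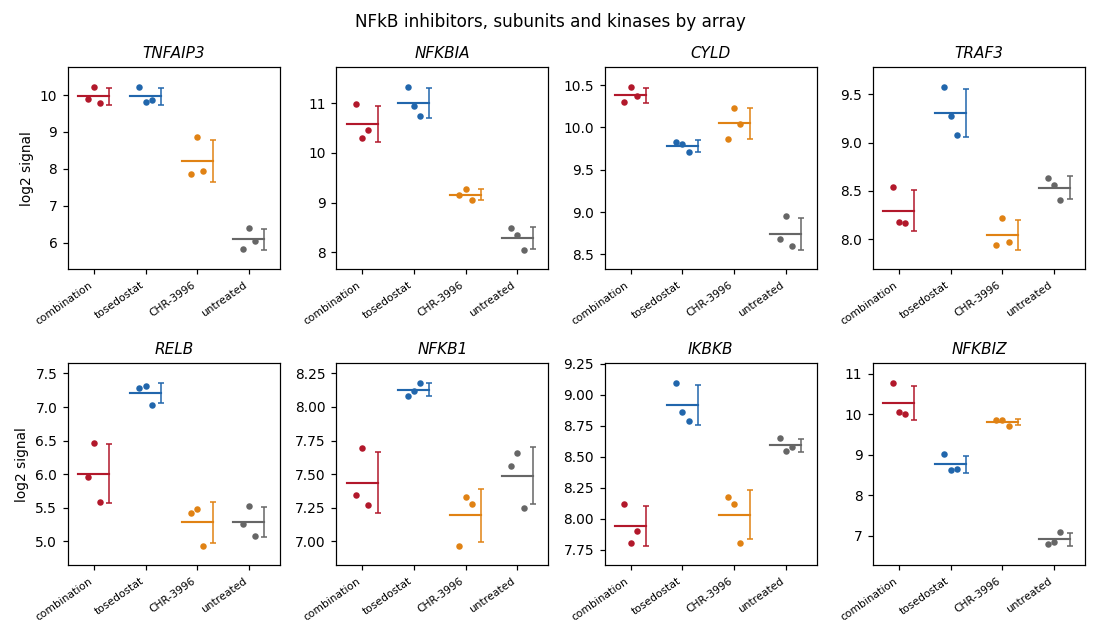
Log2 signal of 8 NFκB genes on each array (points), with group means (bars) and SD (whiskers, n = 3), in combination, tosedostat, CHR-3996 and untreated cells. TNFAIP3 stood at 9.97 in both combination and tosedostat cells, and TRAF3, RELB, NFKB1 and IKBKB stood lower in combination than in tosedostat cells.

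The NFKBIA and TNFAIP3 promoters are shown because these genes are the best known feedback targets of NFκB. The κB letters were searched as GGG, any 2 bases and then TTTCC or TTCCC, on either strand. They were found in 4 of 15 promoters of the negative regulators (NFKBIA, NFKBIZ, TNFAIP3 and TRAF3, 26.7%), in 3.87% of all promoters and in 4.53% of those of tested genes. In NFKBIA the match lies 81 bases before the start (chr14:35404700-35404999, minus strand, GRCh38.p14), and in TNFAIP3 there are 2, at 67 and 55 bases before it (chr6:137867009-137867308, plus strand). Of the 4 genes with a match, NFKBIZ rose, TRAF3 fell and NFKBIA and TNFAIP3 were not called.
NFKBIA: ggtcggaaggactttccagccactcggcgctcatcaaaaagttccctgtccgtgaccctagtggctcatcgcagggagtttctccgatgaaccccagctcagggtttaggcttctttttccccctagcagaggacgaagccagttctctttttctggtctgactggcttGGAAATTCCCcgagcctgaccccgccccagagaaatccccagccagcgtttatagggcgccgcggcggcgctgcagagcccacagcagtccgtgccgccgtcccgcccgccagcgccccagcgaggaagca
TNFAIP3: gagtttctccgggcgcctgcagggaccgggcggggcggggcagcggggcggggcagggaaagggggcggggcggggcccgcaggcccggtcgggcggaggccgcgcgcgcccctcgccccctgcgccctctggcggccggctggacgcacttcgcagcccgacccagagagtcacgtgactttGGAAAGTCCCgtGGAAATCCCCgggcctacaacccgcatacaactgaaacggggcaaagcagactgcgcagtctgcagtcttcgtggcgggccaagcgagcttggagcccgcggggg

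Interferon response genes rose more often than genes in general, and genes of antigen presentation gave mixed shares of rises. Of 8 MHC class II genes tested in the list, 3 rose (37.5%, against 30.4% of all genes) and none fell, with a median of 0.60. The call of 1 of them, HLA-DRA, held in 6 of 12 fits with 1 array left out (highest adjusted p = 0.141). HLA-DPB1 (2.09) and HLA-DQB1 (1.85), class II genes tested outside the list, rose too, so the share depends on which genes were listed. HLA-DPA1, the α chain of HLA-DP, had 10.29, 10.57 and 10.27 in combination cells, against 9.12, 8.21 and 8.58 in tosedostat cells (1.74 ± 0.22, adjusted p = 9.79e-05). HLA-DMA, which loads peptide on class II, had 9.89, 9.91 and 9.83 in combination cells and 8.03, 7.14 and 7.93 in tosedostat cells (2.17 ± 0.20, adjusted p = 9.26e-06). CIITA, the master regulator of class II, stood at 5.99, 6.14 and 6.01 in combination cells and 6.01, 5.68 and 6.14 in tosedostat cells (adjusted p = 0.605). Of 12 class I and peptide-loading genes 2 rose (16.7%) and 1 fell. NLRC5 (1.31), which transactivates class I genes, and HLA-E (0.33) rose and the transporter TAP2 (-1.06) fell. The call of HLA-E was lost without combination replicate 1 or 3 or any 1 tosedostat array (highest adjusted p = 0.108).

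Of 21 interferon response genes, 10 rose (47.6%) and 2 fell in the presence of tosedostat (median 0.39), where 30.4% of all genes rose and 15.8% fell. In its absence 16 rose and none fell (median 2.11), where 31.7% of all genes rose and 18% fell (median 0.11). IFIT1, an RNA-binding effector of the antiviral response, had 10.59, 9.67 and 10.52 in combination cells and 8.65, 7.91 and 6.91 in tosedostat cells (2.44 ± 0.43, adjusted p = 0.000873). IFITM3 (3.20), IFI6 (2.79), GBP2 (2.04) and OAS1 (1.98) also rose, whereas IFI35 fell by 1.22 on the log2 scale. ISG15 stood at 9.22, 9.19 and 9.12 in combination cells and 9.35, 9.22 and 8.77 in tosedostat cells (adjusted p = 0.788), and MX1 was not called either (0.38 ± 0.31, adjusted p = 0.366). The letters of the interferon-stimulated response element, GAAA and GAAA with any 2 bases between them, on either strand, were in 12 of 16 promoters of this list (75%), in 3.65% of all promoters and in 2.9% of those of tested genes. The promoters of IFIT3 (chr10:89327747-89328046, plus strand) and IFIT1 (chr10:89392373-89392672, plus strand) each hold 2 matches, in capitals, at 156 and 122 and at 116 and 103 bases before the start (GRCh38.p14).
IFIT3: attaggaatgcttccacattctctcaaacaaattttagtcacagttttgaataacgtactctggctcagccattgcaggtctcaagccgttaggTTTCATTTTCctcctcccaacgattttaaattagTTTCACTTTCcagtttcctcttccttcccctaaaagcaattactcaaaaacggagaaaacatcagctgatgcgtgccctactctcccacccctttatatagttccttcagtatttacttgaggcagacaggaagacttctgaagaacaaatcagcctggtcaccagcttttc
IFIT1: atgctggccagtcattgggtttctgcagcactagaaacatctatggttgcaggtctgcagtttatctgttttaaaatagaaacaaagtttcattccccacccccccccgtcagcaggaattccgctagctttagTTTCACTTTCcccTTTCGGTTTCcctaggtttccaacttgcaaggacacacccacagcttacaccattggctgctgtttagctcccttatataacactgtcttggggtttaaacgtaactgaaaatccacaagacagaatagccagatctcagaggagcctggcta

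Most genes that CHR-3996 changed in the presence of tosedostat were also called in the same direction without it, and the genes whose changes differed by test were mainly those with smaller rises. Of the 7202 genes called with tosedostat present, 6150 were called in the same direction without it (85.4% of them, and 79.3% of the 7751 called without it, which were 49.7% of all genes, 31.7% higher and 18% lower), 4114 higher and 2036 lower, and 21 were called in opposite directions. Across the 15587 genes, which are not independent replicates, the 2 log2 fold changes correlated at r of 0.908. The test of the difference between the 2 steps called 75 of 36395 probe sets (0.206%), 67 negative (0.184%) and 8 positive (0.022%), which became 231, 189 and 42 with the replicate number as a block. In genes it called 43 (0.276%), 38 negative (0.244%) and 5 positive (0.0321%). In simulated data this test recovered 21.3% of differences of 1 and 74.7% of 2 on the log2 scale, so smaller differences could be missed. Of the 38, 20 rose in both settings but less with tosedostat, 12 rose without it and were not called with it, and 6 fell with it, 4 of which rose without it.

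The number of genes called in this test varied with the arrays used. Leaving out 1 of the 12 arrays kept between 14 and 33 of the 43 calls, and 11 genes were called in every such fit. These were HLA-DPB1, HLA-DPA1, HLA-DQB1, IFIT2, IFIH1, INHBE, DDIT3, KLHL5, PTGER4, ADRA1A and MAP3K14. With the replicate number as a block all 43 stayed called, among 126 genes.

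**Figure D4:**
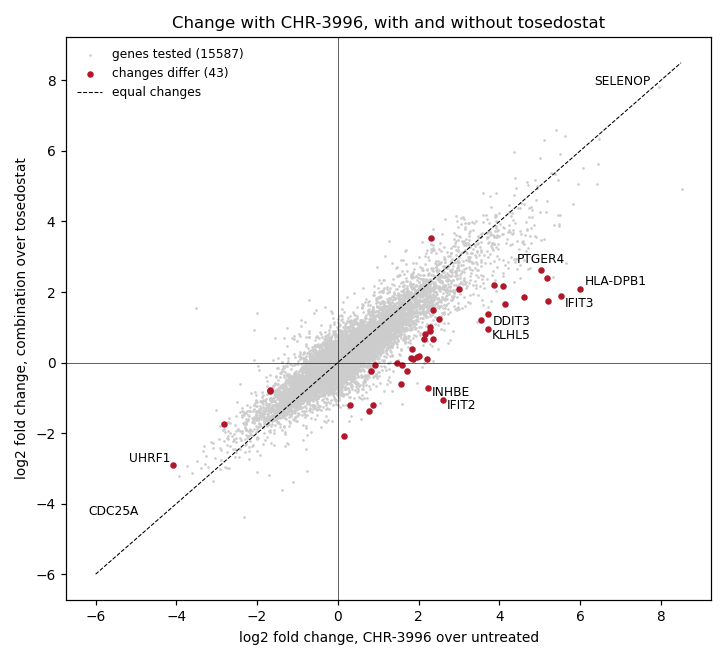
Each point is a gene, with its log2 fold change of CHR-3996 over untreated cells on the horizontal axis and of combination over tosedostat cells on the vertical axis. The dashed line marks equal changes, and the 43 red points are genes whose 2 changes differed at an adjusted p under 0.05. Most points follow the line (r of 0.908 over 15587 genes), and 38 of the red points lie below it.

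In 36 of the 38 genes with a negative difference, combination and CHR-3996 cells were within 1 log2 unit of each other, and in all 38 the mean of tosedostat cells lay above that of untreated cells. Both statements use the values that selected the genes and describe them only. HLA-DPB1, the β chain of HLA-DP, had 9.79, 10.19 and 9.77 in combination cells and 8.40, 7.19 and 7.89 in tosedostat cells, and averaged 9.43 ± 0.21 in CHR-3996 cells and 3.42 ± 0.20 in untreated cells (SD, n = 3 each). Its rise was 2.09 with tosedostat and 6.01 without, a difference of -3.92 (adjusted p = 0.00287). All 3 untreated values of HLA-DPB1 lay under the 40th percentile, as did those of IFIT2, MAP3K14, ADRA1A and NTS, so the sizes of these 5 rises without tosedostat and of the differences are uncertain. KLHL5, a substrate adaptor of ubiquitin ligases, had 8.91, 8.99 and 9.01 in combination cells, 7.85, 7.99 and 8.20 in tosedostat cells and means of 8.55 ± 0.04 in CHR-3996 and 4.83 ± 0.05 in untreated cells (difference -2.76, adjusted p = 4.2e-05). PTGER4, a receptor for prostaglandin E2, rose by 2.63 with tosedostat and by 5.02 without (difference -2.39, adjusted p = 0.00191).

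Interferon and amino acid response genes recur among the 43, with 2 of the 21 tested in the first list and 5 of the 25 in the second, against 0.276% of all genes. The MHC class II list held 2 of 8, and HLA-DPB1 and HLA-DQB1 lie outside that list. The lists were chosen with earlier results of these data known, so these shares describe the genes and are not a test. IFIT2 had 6.45, 6.18 and 6.42 in combination cells and 7.86, 7.41 and 6.96 in tosedostat cells, and averaged 5.47 ± 0.41 in CHR-3996 cells and 2.86 ± 0.44 in untreated cells (SD, n = 3 each). It thus fell by 1.06 with tosedostat and rose by 2.61 without it (difference -3.67, adjusted p = 0.00552). INHBE, an inhibin subunit and ATF4 target, had 10.40, 10.72 and 10.17 in combination cells, against 11.25, 11.07 and 11.10 in tosedostat cells (-0.71, adjusted p = 0.0278), and rose by 2.22 without tosedostat (difference -2.93, adjusted p = 0.006). Its fall was lost without combination replicate 1 or 3 or any 1 tosedostat array (highest adjusted p = 0.0996). SESN2, a sensor of leucine, stood at 10.52, 10.15 and 10.11 in combination cells and 10.74, 10.44 and 10.37 in tosedostat cells (adjusted p = 0.269) and rose by 1.70 without tosedostat (difference -1.96, adjusted p = 0.0127, and 0.0518 without CHR-3996 replicate 2). CTH (-2.17), ATF3 (-1.67) and DDIT3 (-2.36) are the others of the second list, and IFIT3 (-3.63) the other of the first. CTH and ATF3 kept the call in 2 and 3 of the 12 fits with 1 array left out (highest adjusted p = 0.0929 and 0.0657), and IFIT3 in 9 (0.0584).

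**Figure D5:**
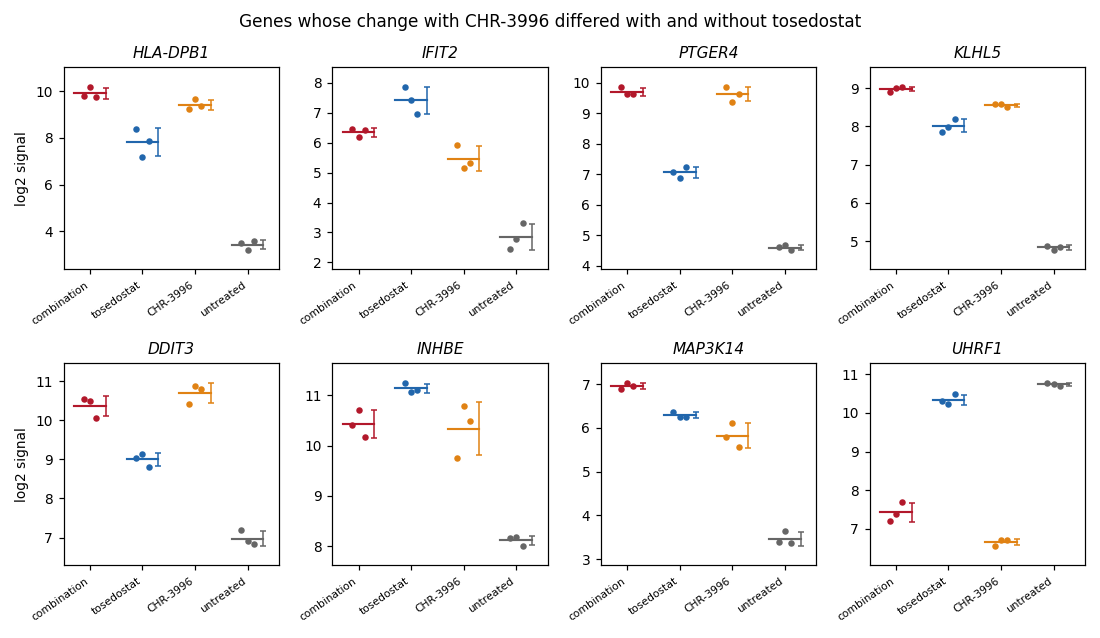
Log2 signal on each array (points), with group means (bars) and SD (whiskers, n = 3), for 8 genes whose change with CHR-3996 differed with and without tosedostat. In HLA-DPB1, PTGER4, KLHL5, DDIT3, MAP3K14 and INHBE the combination and CHR-3996 cells lie well above untreated cells, and tosedostat cells lie above untreated cells too. UHRF1 runs the other way, at 7.43 in combination, 10.34 in tosedostat, 6.66 in CHR-3996 and 10.74 in untreated cells.

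The 5 genes with a positive difference were UHRF1, CENPV, KIF26A and DONSON, which fell less with tosedostat, and PKIA, an inhibitor of protein kinase A, which rose more. UHRF1, which brings the maintenance DNA methyltransferase to replicated DNA, had 7.20, 7.38 and 7.70 in combination cells and 10.30, 10.23 and 10.49 in tosedostat cells, a log2 fold change of -2.92 with tosedostat, against -4.08 without it (difference 1.17, adjusted p = 0.0424). PKIA rose by 3.52 with tosedostat and by 2.31 without (difference 1.21, adjusted p = 0.0379). None of the 5 was called in every fit with 1 array left out, and the highest adjusted p was 0.0657 for CENPV and 0.142 for DONSON.

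Chromatin genes changed on both sides, where 30.4% of all genes rose and 15.8% fell. Of 14 histone genes, 9 rose and none fell, with a median of 1.20, and 2 fell under the other 2 scalings. H1-2, a linker histone, had 13.06, 12.75 and 12.37 in combination cells, against 9.97, 9.77 and 9.12 in tosedostat cells (3.11 ± 0.26, adjusted p = 5.43e-06). H2BC5 (3.38), H2AC6 (2.90) and H2BC21 (2.48) rose too, and members of the histone families are so alike that probes may read several of them. Of 18 histone deacetylases and sirtuins, 8 rose (44.4%) and 1, HDAC7 (-0.97), fell. HDAC9 had 11.56, 11.56 and 11.29 in combination cells and 7.93, 8.32 and 7.47 in tosedostat cells (3.56 ± 0.22, adjusted p = 9.94e-07), HDAC5 rose by 1.44 and HDAC3, the subunit of the nuclear corepressor complexes, by 0.98. Among 30 writers and erasers of histone and DNA methylation, 9 fell and 4 rose with tosedostat present. Without it 15 were lower and 5 higher, where 18% of all genes were lower and 31.7% higher. PRMT1 (-1.43), SUV39H1 (-1.38) and DOT1L (-1.29) fell, as did UHRF1, and the histone demethylase KDM5B (1.53) rose.

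Genes of apoptosis changed in mixed directions, where 30.4% of all genes rose and 15.8% fell. Of 10 anti-apoptotic genes, 5 fell and 1, BCL2 (1.05), rose. BCL2L1, which encodes BCL-XL, had 8.09, 7.92 and 8.15 in combination cells and 9.19, 8.60 and 8.78 in tosedostat cells (-0.80 ± 0.18, adjusted p = 0.00361). Without tosedostat it stood at 7.99 ± 0.26 in CHR-3996 and 7.98 ± 0.16 in untreated cells. The difference between the 2 steps was not called for BCL2L1 (adjusted p = 0.283, and 0.231 with the replicate number as a block). CFLAR, the caspase 8 inhibitor FLIP, had 10.56, 10.25 and 10.14 in combination cells, against 11.10, 10.66 and 10.92 in tosedostat cells (-0.58 ± 0.15, adjusted p = 0.00937), with 7 of its 13 probe sets lower and 1 higher. Without tosedostat CFLAR rose by 0.51, and the difference of -1.08 had an adjusted p of 0.0803, and 0.0289 with the replicate number as a block. MCL1 stood at 13.26, 13.15 and 13.12 in combination cells and 13.31, 13.26 and 13.17 in tosedostat cells, which overlap (adjusted p = 0.616).

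Of 13 BCL2 family members that promote death, 4 fell, BID (-1.59), BAK1 (-0.54), BAX (-0.46) and BAD (-0.41), and 3 rose, BNIP3L (1.74), BMF (0.97) and BCL2L11, which encodes BIM (0.41). The falls were 30.8% and the rises 23.1% of the list, where 15.8% of all genes fell and 30.4% rose. The call of BCL2L11 held in 8 of 12 fits with 1 array left out and that of BAK1 in 2. APAF1, the scaffold of the apoptosome, had 9.72, 9.44 and 9.46 in combination cells and 7.19, 7.47 and 7.36 in tosedostat cells (2.19 ± 0.16, adjusted p = 2.24e-06), and 7 of 16 caspases and apoptosome genes rose, with CASP9 at 1.03 and CASP8 at 0.81. The death receptor TNFRSF10A fell, with 7.18, 7.70 and 7.58 in combination cells and 8.88, 8.85 and 8.99 in tosedostat cells (-1.42 ± 0.17, adjusted p = 4.77e-05). Its ligand TNFSF10, or TRAIL, rose by 1.59. TNFRSF10B, the other death receptor for TRAIL, stood at 11.58, 11.10 and 11.07 in combination cells and 11.22, 11.16 and 11.06 in tosedostat cells (adjusted p = 0.637). Of 25 p53 targets, 9 rose (36%) and 6 fell (24%). Without tosedostat 15 rose and 4 fell, where 31.7% of all genes rose and 18% fell. The rises were led by PLK2 (3.29), TP53INP1 (2.94) and SESN1 (1.88).

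Autophagy and lysosome genes were among the lists with the largest share of rises, 19 of 34 and 13 of 23, where 30.4% of all genes rose. MAP1LC3B, the LC3B protein of autophagosome membranes, had 11.58, 11.37 and 11.27 in combination cells, against 9.62, 9.98 and 9.84 in tosedostat cells (1.59 ± 0.17, adjusted p = 2.22e-05). The initiating kinase ULK1 (1.32), the cargo receptor OPTN (1.39), GABARAPL2 (1.38) and the mitophagy receptor BNIP3L rose as well, and ATG7 (-0.93), ATG4D (-0.35) and TFEB, a master regulator of lysosome genes (-0.70), fell. SQSTM1, the cargo receptor p62, stood at 12.98, 13.04 and 12.94 in combination cells and 13.13, 13.00 and 13.06 in tosedostat cells (adjusted p = 0.647), but the mean of its probe sets rose by 0.33 (adjusted p = 0.0344). The lysosomal sterol carrier NPC2 had 12.16, 11.93 and 11.94 in combination cells and 10.61, 10.63 and 10.48 in tosedostat cells (1.44 ± 0.11, adjusted p = 2.86e-06). The median list changes were 0.52 for both, and under the other 2 scalings 0.38 and 0.29 for autophagy and 0.51 and 0.28 for lysosome.

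Genes for making ribosomes and for handling proteins fell more often than they rose, where 15.8% of all genes fell and 30.4% rose. Of 20 ribosome biogenesis genes, 15 fell and none rose (median -0.88), and of 22 mitochondrial ribosomal proteins, 16 fell and none rose (median -0.62). NOP16, a nucleolar protein, had 9.69, 9.82 and 9.75 in combination cells and 11.53, 11.33 and 11.32 in tosedostat cells (-1.64 ± 0.17, adjusted p = 2.3e-05). Of 30 proteasome subunits, 16 fell and none rose, most of them by little (median -0.34). PSMB5, the catalytic subunit that bortezomib blocks, had 10.71, 10.65 and 10.76 in combination cells and 12.25, 12.12 and 12.16 in tosedostat cells (-1.47 ± 0.14, adjusted p = 1.26e-05). Chaperones of the cytosol and mitochondria gave 9 lower and 3 higher of 17, with HSPE1 (-1.22) and HSPH1 (-1.06) lower and HSPB1, the small heat shock protein HSP27 (1.82), higher. Of 26 genes of the unfolded protein response, 7 fell and 3 rose, among them the sensors EIF2AK3 (0.70) and ATF6 (0.51).

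Metallothionein and early response genes rose in combination cells more often than the 30.4% of all genes, and neuronal genes did not. Of 10 metallothioneins and zinc genes, 8 rose and none fell, with a median of 1.19, and 1 fell under the other 2 scalings. MT2A, a zinc-binding protein, had 13.25, 12.51 and 12.68 in combination cells, against 9.46, 9.84 and 9.14 in tosedostat cells (3.33 ± 0.29, adjusted p = 7.86e-06). Of 21 AP-1 and early response genes, 13 rose and 1, DUSP2 (-1.71), fell, and FOS, a subunit of AP-1, had 8.15, 8.06 and 8.02 in combination cells and 1.37, 3.74 and 4.65 in tosedostat cells (4.82 ± 0.62, adjusted p = 0.000103, of uncertain size because 2 tosedostat values lie under the 40th percentile). KLF2, a transcription factor of quiescence, rose by 2.72 with tosedostat and by 0.96 without, a difference of 1.75 that was not called (adjusted p = 0.0555, and 0.0417 with the replicate number as a block). TXNIP, which inhibits thioredoxin, had 13.29, 12.75 and 13.24 in combination cells and 9.13, 8.96 and 8.98 in tosedostat cells (4.07 ± 0.17, adjusted p = 1.26e-07). Of 23 neuronal genes, 7 rose (30.4%) and none fell, with MAP2, SYT11 (5.18) and RAB3C (5.05) at the top, and RGS1 and RGS2, which shorten G protein signalling, rose by 4.92 and 4.95.

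Among plasma cell genes, 4 of 19 fell (21.1%) and 6 rose (31.6%), near the 15.8% and 30.4% of all genes. SDC1, the plasma cell antigen CD138, had 10.11, 10.06 and 9.97 in combination cells, against 12.04, 12.13 and 11.93 in tosedostat cells (-1.98 ± 0.16, adjusted p = 4.05e-06), and TNFRSF17, the receptor BCMA, fell by 1.67 on the log2 scale. BCL6, a repressor of germinal centre B cells, had 8.58, 8.66 and 8.47 in combination cells and 4.42, 4.23 and 4.08 in tosedostat cells (4.33 ± 0.17, adjusted p = 8.57e-08, of uncertain size because all 3 tosedostat values lie under the 40th percentile), and EBF1, an early B cell factor, rose by 3.59. IRF4, PRDM1 and XBP1, the core plasma cell factors, were not called (-0.31, 0.20 and -0.36), although XBP1 was lower with the replicate number as a block (adjusted p = 0.0328), and both IRF4 and XBP1 were lower after quantile normalization (0.0267 and 0.0496) and with equal array medians (0.00546 and 0.00536). Of 17 myeloma oncogenes and signalling genes, 7 fell and 4 rose. MYC had 7.42, 8.23 and 7.72 in combination cells and 9.25, 9.05 and 9.07 in tosedostat cells (-1.33 ± 0.24, adjusted p = 0.000952), and FGFR3, which the t(4;14) translocation activates, fell by 1.20. DKK1, a secreted Wnt antagonist that blocks bone formation in myeloma, had 9.86, 10.01 and 10.38 in combination cells and 5.50, 6.05 and 6.20 in tosedostat cells (4.17 ± 0.22, adjusted p = 4.27e-07).

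The remaining lists gave fewer or mixed calls, to be read beside the 30.4% of all genes that rose and the 15.8% that fell. Adhesion receptors were split, with the integrin chain ITGAL (-2.27) lower and NCAM1 (2.26) and ITGAV (1.85) higher. Ligands of natural killer cells included MICA (2.01) and NECTIN2 (2.18) among 3 rises of 10 (30%), about the share of all genes. Of 15 NRF2 and glutathione genes, 6 rose and 4 fell, with the NRF2 inhibitor KEAP1 (-1.49) lower and its target NQO1 (2.47) higher. Cholesterol synthesis gave 9 rises and 1 fall of 19, led by HMGCS1 (1.16), and glycolysis 5 rises and 8 falls of 19, with HK2 (-1.49) lower and ALDOC (2.58) higher. Of 20 subunits of oxidative phosphorylation, 3 fell (15%, about the share of all genes) and 1, SDHA, rose (0.28, adjusted p = 0.0452). The call of SDHA held in 2 of 12 fits with 1 array left out and was lost with equal array medians (0.736). Of the 14 aminopeptidases measured, which include targets of tosedostat, 2 fell, DNPEP (-0.96) and DPP3 (-0.67), and 2 rose, LTA4H (1.44) and METAP1 (0.55), while LAP3 (0.03) and NPEPPS (0.28) were not called.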

How the data were processed

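RNA from 12 samples of H929 cells was hybridised to Affymetrix U133 Plus 2.0 arrays, 3 samples in each of 4 groups taken from the sample titles. The deposited values are log2 signals per probe set, made by the authors with dChip, whose settings the sources used here do not state. No array was renormalized for the main results. Probe sets above the 40th percentile of their array on at least 3 arrays were kept (36395), and 29161 of them carried 1 gene symbol, 1365 several and 5869 none in the annotation used. All 12 arrays were fitted together with limma (3.58.1, in R 4.3.3) with 4 group means, 8 residual degrees of freedom and Benjamini-Hochberg adjustment over all probe sets. Genes (15587) were represented by their brightest probe set kept. The tests were checked on simulated data. Figures were drawn in Python (3.11.15) with matplotlib (3.10.9). The number of arrays limits the precision.

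The samples, gene lists and tests were chosen with earlier results of these data known. The 10 genes with the highest and the 10 with the lowest log2 fold change were taken from called genes with fully separate combination and tosedostat values. Up to 4 called members of each list, those with the largest changes in either direction, were named too. Other members were given for context or because the change differed with and without tosedostat. Deviations from the group means of same-numbered combination and tosedostat arrays correlated at 0.212, 0.233 and 0.19, so the numbers appear to pair these samples, on this evidence from the data alone, while the main fit was not paired and the block is an alternative. Those of CHR-3996 and untreated arrays correlated at 0.077, 0.12 and 0.036. Alternatives were quantile normalization, equal array medians, other filters, low values raised to a floor, pairing by replicate number as a block, robust variances with a trend, the 2 groups alone, the mean over a gene's probe sets, the study's fold and difference criteria, and leaving out each array in turn. Promoter sequences came from RefSeq (GRCh38.p14).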

Additional observations from a re-analysis of the deposited data

Results flagged for a closer look

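In 43 genes the change with CHR-3996 differed between cells with and without tosedostat by the interaction test (limma, adjusted p under 0.05), and the values below are the log2 change with tosedostat minus that without. Among antigen presentation and interferon genes the difference was -3.92 for HLA-DPB1, -3.67 for IFIT2, -3.63 for IFIT3, -3.48 for HLA-DPA1, -2.77 for HLA-DQB1, -1.92 for HLA-DMA, -1.76 for IFIH1 and -1.69 for SAMD9L. Among genes of amino acid and stress responses it was -2.93 for INHBE, -2.36 for DDIT3, -2.17 for CTH, -1.96 for SESN2, -1.83 for GTPBP2, -1.67 for ATF3, -1.52 for CBS and -1.004 for SQSTM1.

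Among receptors and signalling genes the difference was -2.80 for CCL4, -2.50 for ADRA1A, -2.39 for PTGER4, -2.35 for NTS, -2.14 for ADAM8, -2.10 for FCRLA, -2.06 for NLRP7, -1.69 for MAP3K14 and -1.67 for SH2D3C. For KLHL5 it was -2.76, for RNF19B -2.24 and for UBE2QL1 -1.27, all 3 genes of protein ubiquitination. The other negative values were -1.79 for TMEM154, -1.47 for CRYZ, -1.45 for PLAC1, -1.45 for RAB39B, -1.40 for KDM7A, -1.34 for LRATD2, -1.25 for FAM171B, -1.08 for R3HDM2, -0.93 for LINC02382 and -0.88 for SLC30A4. The positive values were 1.21 for PKIA, 1.17 for UHRF1, 1.08 for CENPV, 0.89 for KIF26A and 0.86 for DONSON. The differences of CRYZ and FAM171B were not called after quantile normalization (adjusted p = 0.0554 and 0.0564).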

How the results depend on the processing

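Between combination and tosedostat cells, 8570 probe sets were lower after quantile normalization and 8631 with equal array medians, and between CHR-3996 and untreated cells 9420 and 8981. The study's fold and difference criteria called 3875 probe sets with tosedostat (2772 higher, 1103 lower) and 4551 without it (3104 and 1447). The interaction test called 166 probe sets after quantile normalization (19 higher, 147 lower), 22 with no filter (1 and 21), 224 with a filter at the 60th percentile (40 and 184), 191 with low values raised to the 40th percentile (45 and 146), 231 with the replicate number as a block (42 and 189) and 245 with a variance trend and robust estimation (49 and 196). With 1 array left out, the calls between combination and tosedostat cells ranged from 13317 to 15734 (higher 9146 to 10466, lower 4171 to 5268), those between CHR-3996 and untreated cells from 14750 to 16337 (higher 9387 to 10651, lower 4920 to 5833) and those of the interaction from 22, without CHR-3996 replicate 2, to 84 (higher 0 to 9, lower 21 to 79). The median of the 14 selenoproteins, 0.06, became -0.052 after quantile normalization and -0.173 with equal array medians. SQSTM1, not called at -0.08 through its brightest probe set, was higher by 0.332 as the mean of its probe sets, and COL1A1 likewise by 0.949 against -0.16 through its brightest. Of the 7202 genes called, 5594 were called in every such fit. Leaving out 1 array also ended the calls of PAX5 (highest adjusted p = 0.0772), ATG4D (0.116), BCL2L11 (0.0932) and SLC7A5 (0.0609). With equal array medians MCL1, IRF4, XBP1, AURKA, TOP2A, CTH, SESN2 and SQSTM1 were called lower, and ATF6, METAP1, BCL2L11, HLA-E and HLA-DRA were not called. After quantile normalization HLA-DRA (adjusted p = 0.096) and MAP3K14 (0.089) were not called. With the replicate block CTH was called lower (0.0067), and the interaction was also called for ARHGAP9 (0.0455), TIGIT (0.0259), DKK1 (0.0259), RGS1 (0.0289), TP53INP1 (0.0215), OPTN (0.0398) and TFEB (0.0301).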
